A study of Mus musculus with 8 samples.

Results

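Semaphorins, ephrins, Slits and netrins are the classical guidance cues, and this account follows the mRNA of these ligands and of their receptors in mouse tendon stem cells (TSCs) under a high fat, high glucose load. The genes were chosen by symbol alone, by a pattern that takes the Sema, Efn, Slit and Ntn ligands, Draxin, and the plexin, neuropilin, Eph, Robo, Unc5, Dcc and Neo1 receptors. It found 73 of the 19301 listed genes. The name matches Unc50 and Unc5cl, are no guidance genes and are kept apart, which leaves 36 ligands and 35 receptors. Primary TSCs were taken from the patellar tendon of C57BL/6J mice by collagenase digestion, and no sort is described. They were cultured for 4 days in low glucose medium (LG, with the solvent DMSO) or in high glucose medium with palmitic acid, a saturated fatty acid (HFHG), with 4 biological replicates per group. No engineered allele is described for the mice, and their age and the number of animals behind a culture are not given in the sources used here. Expression is given as FPKM, the fragments of a gene scaled by its length and the depth of the library, so that levels of different genes can be compared per length.

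Guidance cues were named for steering growing axons, and the same proteins act between many cell types outside the nervous system. Class 3 semaphorins are secreted and bind neuropilins, which carry no signalling domain of their own and pair with plexins, while most other semaphorins are membrane-bound and bind plexins directly. Ephrins sit in the membrane and signal through Eph receptor tyrosine kinases on the neighbouring cell, and the cell that bears the ephrin can receive a signal as well. Slits are secreted ligands of Robo receptors, and netrins are laminin-related proteins that bind Dcc, neogenin and the Unc5 receptors. In tendon and bone, members of these families are known for roles in cell positioning, vessel and nerve ingrowth and the exchange between osteoblasts and osteoclasts.

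The 8 libraries held 34231150 to 37290483 reads on the listed genes, and the first principal component, with 81% of the variance, separated HFHG from LG. Of 13 mesenchymal and tendon genes, 12 were higher and 1 was lower in HFHG at an adjusted p below 0.05. Over all tested genes the shares were 34% and 30.8%. The summed level of the list was 2429 to 2484 FPKM in HFHG and 1331 to 1363 FPKM in LG. The tendon genes Scx and Tnmd were low, with Scx at a mean of 2.27 and 1.45 FPKM and Tnmd at 1.10 and 0.614 FPKM in HFHG and LG. Values of Scx overlapped between the groups and those of Tnmd did not. The tendon factor Mkx was the gene of the list that was lower, at 6.73 FPKM in HFHG and 8.62 FPKM in LG, without overlap. Of 12 macrophage genes, Lyz2 was by far the most abundant, at a mean of 1637 FPKM in HFHG and 1765 FPKM in LG (log2 fold change -0.11). Tyrobp was at 42.2 and 64.8 FPKM, C1qa at 18.6 and 36.6, Mrc1 at 2.64 and 4.88 and Cd163 at 0.0231 and 0.0252. Of the 11 tested genes, 9 were lower in HFHG and 0 higher, against 30.8% and 34% of all tested genes. The median log2 fold change of the 11 was -0.52. The list summed to 1768 to 1818 FPKM in HFHG and 1957 to 2043 FPKM in LG, and Lyz2 made up most of that sum. Of 8 endothelial, 9 neuronal and 6 Schwann cell genes, 6, 7 and 1 were below 0.5 FPKM in every library. The Schwann cell list summed to 5.74 to 6.26 FPKM in HFHG and 4.18 to 5.14 FPKM in LG, the neuronal list to 3.91 to 4.87 and 2.0 to 2.27 FPKM, and the endothelial list to 1.68 to 1.84 and 1.90 to 2.23 FPKM. Of 8 skeletal muscle genes 6 were listed, with sums of 0.759 to 1.94 and 3.54 to 4.36 FPKM. The differences of the neuronal, endothelial and skeletal muscle sums rested mainly on Stmn2, Vwf and Acta1. Stmn2 was at a mean of 3.39 and 1.162 FPKM in HFHG and LG, Vwf at 0.393 and 1.036 and Acta1 at 0.904 and 3.38. The endothelial gene Tek went against its list and was called higher (log2 fold change 0.47), and the neuronal gene Tubb3 was not called. Of 4 tested Schwann cell genes, Sox10 was called higher (log2 fold change 0.55) and the other 3 were not called. The sums of the marker lists differed between the conditions, and their part in the results below was not tested. In such bulk libraries a change in the share of a cell type and a change of RNA per cell cannot be told apart.

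Guidance genes were mostly higher in HFHG. Of the 73, 49 reached 0.5 FPKM in at least 4 of the 8 libraries and were tested, and 32 of them (65.3%) were higher at an adjusted p below 0.05, while 34% of all 11710 tested genes were. Only 4 of the 49 (8.16%) were lower, against 30.8% of all tested genes. More than 2-fold higher with p below 0.05 were 8 members (16.3%) and more than 2-fold lower none (limma, and also none with voom on the recovered reads), and the shares over all tested genes were 3.68% and 1.65%. The 4 HFHG libraries lay above the 4 LG libraries for 29 of the 49 tested members and below them for 4. Over all tested genes the shares were 31.1% and 28.1%. The median log2 fold change was 0.31 over the tested members and 0.02 over all tested genes. Plxna4, Epha4 and Draxin passed the expression filter through HFHG alone, so that they had to differ. Without them and without Unc50, 28 of 45 genes (62.2%) were higher, 4 were lower, and 5 were more than 2-fold higher. Of these 45, 25 lay higher in HFHG without overlap and 4 lay lower. Unc50, a Golgi and nuclear membrane protein, rose from 35.4 ± 1.74 to 42.6 ± 1.13 FPKM (mean ± SD, n = 4 per group). It is left out of the family counts below, but not of the promoter counts or the counts of members under other settings.

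**Figure D1:**
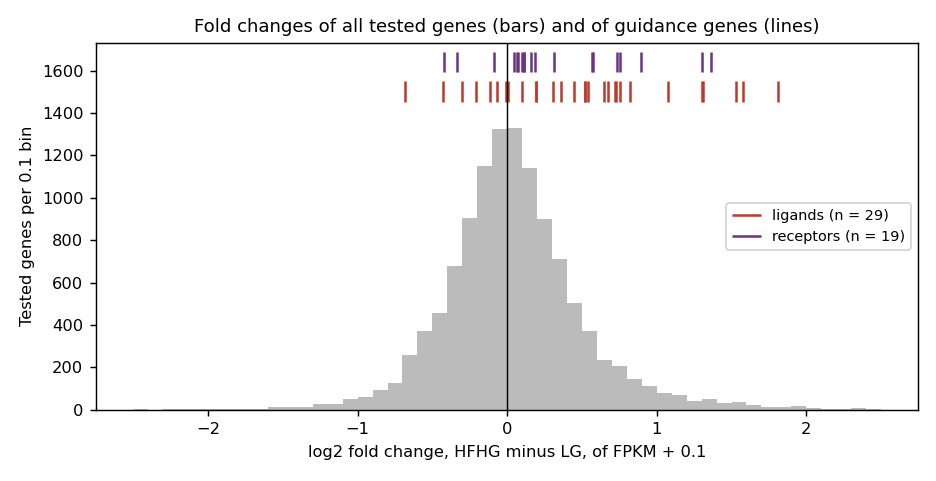
Histogram of the log2 fold change (HFHG minus LG, of FPKM + 0.1) of the 11710 tested genes in bins of 0.1, with 28 genes beyond 2.5 in either direction not drawn, and above it a line for each of 29 tested ligands and 19 tested receptors. The histogram is centred near 0, and the lines of the ligands reach from -0.68 to 1.81 with most of them to the right of 0.

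Ligands and receptors differed in their summed levels. The ligands added up to 391 ± 8.20 FPKM in HFHG and 276 ± 14.0 FPKM in LG, and the receptors to 243 ± 6.04 and 243 ± 9.64 FPKM. The shares of called genes were close. Of the 29 tested ligands, 19 (65.5%) were higher, 3 (10.3%) were lower and 7 were not called, with a median log2 fold change of 0.52 (0.48 without Draxin). Of the 19 tested receptors, 12 (63.2%) were higher, 1 (5.26%) was lower and 6 were not called, with a median of 0.16 (0.11 without Plxna4 and Epha4). Over all tested genes 34% were higher and 30.8% lower. The sums rest on few genes. Slit3 made up 52.7 ± 0.734% of the ligand sum in HFHG and 47.5 ± 0.989% in LG, and Nrp2 made up 23.9 ± 0.300% and 32.0 ± 0.485% of the receptor sum. The even receptor sum holds the fall of Nrp2, from 77.8 ± 4.21 FPKM in LG to 58.1 ± 1.88 FPKM in HFHG, beside rises of other receptors.

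**Figure D2:**
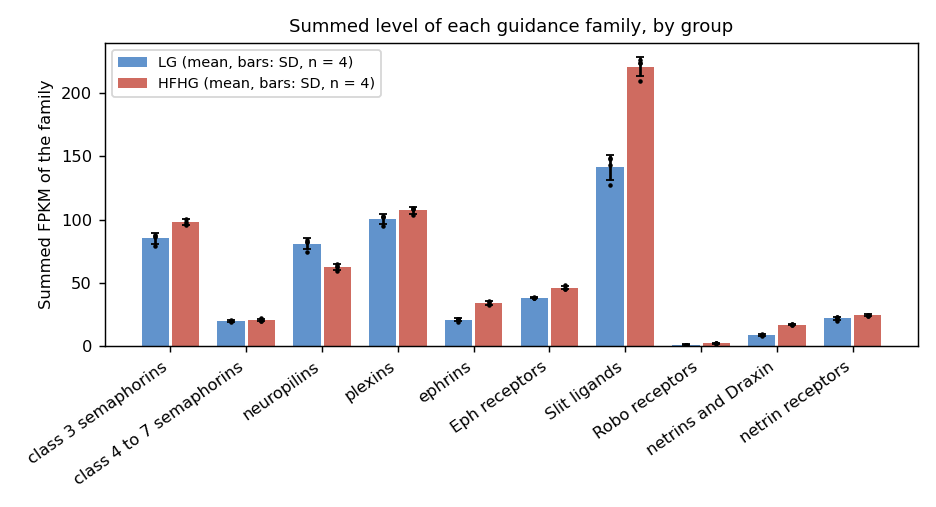
Summed FPKM of each guidance family in LG (blue) and HFHG (red), with bars at the mean of 4 libraries, error bars at 1 SD and a point for each library. The Slit ligands rise from 141 to 220 FPKM and the neuropilins fall from 80.9 to 62.7 FPKM, and the semaphorins of classes 4 to 7 lie at 20.1 and 20.9 FPKM.

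The most abundant of all these genes was Slit3 (chr11:35121456-35708507, mm10), a secreted ligand of Robo receptors. Its level was 196, 211, 209 and 208 FPKM in the HFHG libraries and 138, 137, 133 and 118 FPKM in the LG libraries, without overlap. The log2 fold change was 0.65 ± 0.0452 (SE, n = 4 per group; adjusted p = 6.15e-08). Its paralogs rose by similar sizes. Slit2 increased from 8.60 ± 0.707 to 12.5 ± 0.518 FPKM (SD), a log2 fold change of 0.54. Slit1 was at 1.84, 2.24, 1.96 and 1.94 FPKM in HFHG and at 1.27, 1.06, 1.10 and 1.26 FPKM in LG, a log2 fold change of 0.72 ± 0.0979 (adjusted p = 3.21e-05). In all 3 genes the lowest HFHG library exceeded the highest LG library, as it did in 31.1% of all tested genes.

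The Robo receptors were scarce beside their ligands. Robo1 (chr16:72027518-73047491) was the only 1 of 4 that passed the filter, with 2.07, 2.25, 2.05 and 2.33 FPKM in HFHG and 1.25, 1.39, 1.35 and 1.03 FPKM in LG. The groups did not overlap, and the log2 fold change was 0.76 ± 0.103 (adjusted p = 3.26e-05). Robo2 had 238 reads in HFHG and 185 in LG, summed over the 4 libraries of a group, with overlapping values of 0.111 to 0.183 and 0.0830 to 0.161 FPKM. Robo3, a receptor of commissural axons, had 135 and 45 reads and did not overlap (0.0653 to 0.180 against 0.0431 to 0.0593 FPKM). Its exact two-sided permutation p was 0.0286, unadjusted and the smallest possible. Robo4, the endothelial member, had 11 and 5 reads.

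**Figure D3:**
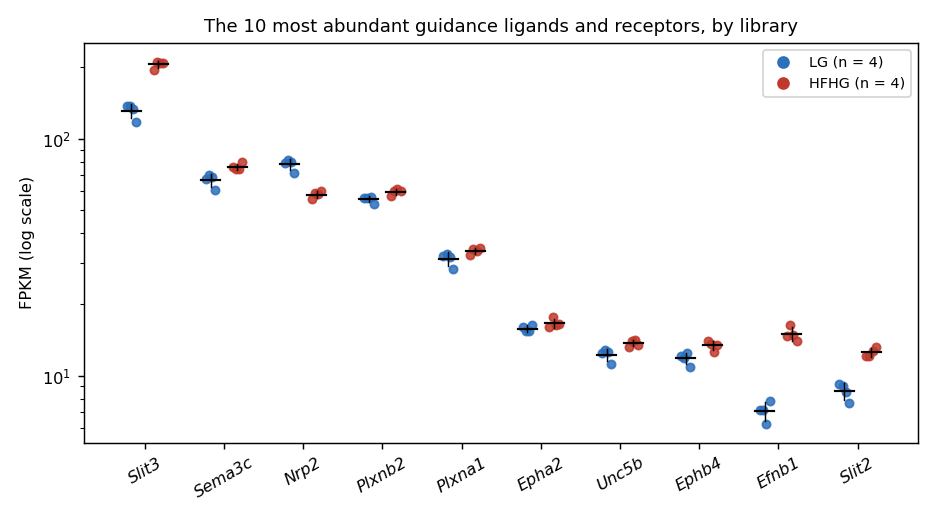
FPKM on a log axis of the 10 guidance ligands and receptors with the highest mean over all libraries, with a point for each of 4 LG (blue) and 4 HFHG (red) libraries, a horizontal line at the mean and a vertical line of 1 SD on each side. Slit3 lies highest in both groups, Nrp2 is the only 1 of the 10 with the LG mean above the HFHG mean, and the points of Epha2 overlap.

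Among the class 3 semaphorins, 4 of 6 tested genes (66.7%) were higher and 1 (16.7%) was lower, against 34% and 30.8% of all tested genes. The direction differed between close neighbours on the chromosome. Sema3c (chr5:17574816-17730268), which guides neural crest and vessel growth, had the highest level. It was at 76.0, 74.3, 74.6 and 79.6 FPKM in HFHG and at 67.4, 70.03, 68.6 and 60.8 FPKM in LG. The increase was small but without overlap, and the log2 fold change was 0.19 ± 0.0418 (adjusted p = 0.00145). Its share of the ligand sum was 19.5 ± 0.733% in HFHG and 24.1 ± 0.545% in LG.

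Sema3d (chr5:12383161-12588953), known for a role in endothelial patterning, had 3.51, 3.19, 3.42 and 3.65 FPKM in HFHG and 0.947, 1.22, 1.34 and 1.03 FPKM in LG. The log2 fold change of 1.53 ± 0.106 (adjusted p = 5.52e-08) was the largest among the semaphorins. Sema3f (chr9:107681499-107710475), a repellent that binds mainly Nrp2, stood at 7.70, 8.20, 8.06 and 7.72 FPKM in HFHG and at 3.07, 2.76, 3.60 and 3.24 FPKM in LG, and its log2 fold change was 1.30 ± 0.0744 (adjusted p = 9.24e-09). For both genes every HFHG library was above every LG library. Sema3a, the archetypal repellent of sensory axons and a regulator of bone mass, rose from 1.23 ± 0.106 to 2.02 ± 0.0909 FPKM (SD). Sema3e, which binds Plxnd1 without a neuropilin, was at 1.09 ± 0.158 and 1.09 ± 0.130 FPKM, and its log2 fold change of -0.01 ± 0.128 (SE) was not called.

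Sema3b (chr9:107597674-107609241) went the other way. It lies 72258 bases from Sema3f and was at 7.76, 7.13, 7.58 and 6.39 FPKM in HFHG and at 12.7, 11.01, 11.2 and 11.6 FPKM in LG. The highest HFHG library was below the lowest LG library, and the log2 fold change of -0.68 ± 0.0664 (adjusted p = 1.46e-06) was the largest decrease of all tested members. In LG, Sema3b was thus above Sema3f in every library, while in HFHG the values ran from 6.39 to 7.76 FPKM for Sema3b and from 7.70 to 8.20 FPKM for Sema3f.

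The neuropilins, co-receptors of these ligands, moved in opposite directions. Nrp2 (chr1:62703317-62818692) had 55.5, 58.8, 58.1 and 59.9 FPKM in HFHG and 79.3, 81.0, 79.4 and 71.6 FPKM in LG. Nrp1 (chr8:128358591-128505476), which also binds VEGF, had 4.36, 4.62, 4.41 and 5.01 FPKM in HFHG and 3.08, 3.17, 3.13 and 2.87 FPKM in LG. Neither gene overlapped between the groups. The log2 fold change was -0.42 ± 0.0395 for Nrp2 (adjusted p = 1.08e-06) and 0.57 ± 0.0663 for Nrp1 (adjusted p = 7.63e-06). The ratio of the Nrp2 to the Nrp1 level within a library, on which a scaling factor between libraries has no effect, was 11.95 to 13.2 in HFHG and 25.0 to 25.8 in LG. Nrp2 is also made by macrophages, whose marker list was lower in HFHG as given above. That part was not tested.

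Plexins, the signalling receptors, changed little where they were abundant. Plxnb2 (chr15:89155546-89182018), the receptor of class 4 semaphorins, was at 57.1, 60.4, 61.4 and 59.9 FPKM in HFHG and at 56.4, 56.4, 56.7 and 53.2 FPKM in LG. The log2 fold change was 0.10 ± 0.0318 (adjusted p = 0.0143), which became 0.06 (adjusted p = 0.0986) with median-ratio scaling of the libraries. Plxna1 and Plxna2, partners of the neuropilins, were called higher with log2 fold changes of 0.11 and 0.31, but their groups overlapped, and leaving out HFHG replicate 2, HFHG replicate 4, LG replicate 3 or LG replicate 4 ended both calls, and HFHG replicate 3 or LG replicate 1 ended 1 of them. Plxna3, Plxnc1 and Plxnd1 were not called, with log2 fold changes of 0.07, -0.34 and -0.09.

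Plxna4 (chr6:32144543-32588192), the low-abundance partner of Nrp1 for Sema3a, was the only plexin past 2-fold. Its level was 0.616, 0.623, 0.580 and 0.508 FPKM in HFHG and 0.141, 0.168, 0.215 and 0.138 FPKM in LG. It passed the filter through HFHG alone, so the groups had to lie apart and the call is no separate support. The log2 fold change was 1.37 ± 0.162 (adjusted p = 9.40e-06). The annotated exons of Plxna4 overlap an antisense transcript, Plxna4os3, by up to 110 bases, and whether the counting used the strand is not given in the sources used here. Exons of Plxna1 overlap the antisense transcript Gm26811 by up to 191 bases, and those of Plxnc1 overlap Gm48718 on the same strand by up to 115 bases.

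**Figure D4:**
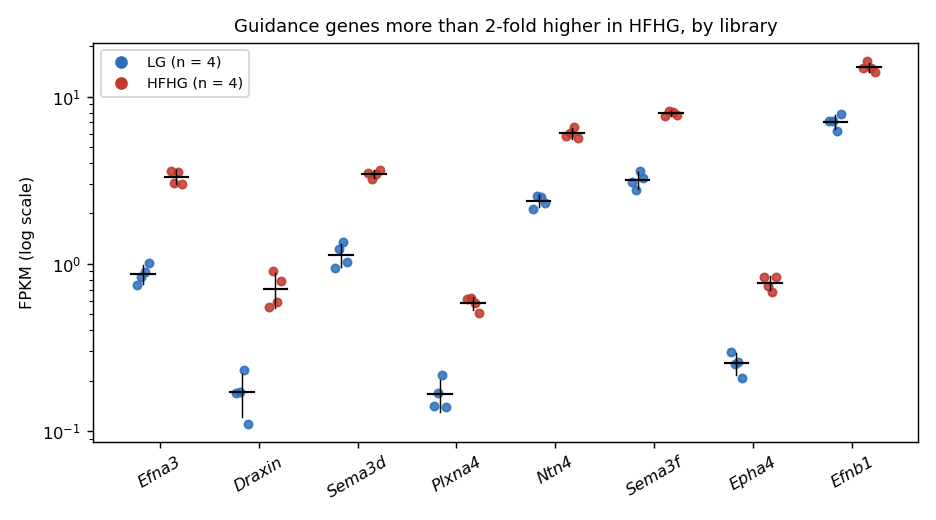
FPKM on a log axis of the 8 guidance genes more than 2-fold higher in HFHG, ordered by fold change, with a point for each of 4 LG (blue) and 4 HFHG (red) libraries, a horizontal line at the mean and a vertical line of 1 SD on each side. In each gene the 4 HFHG points lie above the 4 LG points, and Draxin, Plxna4 and Epha4 are below 0.5 FPKM in every LG library. For Draxin, Plxna4 and Epha4 the expression filter fixed that order.

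Semaphorins of classes 4 to 7 were called higher about as often as all tested genes. Of 9 tested, 3 (33.3%) were higher, 1 (11.1%) was lower and 5 were not called, against 34% and 30.8% of all tested genes. The median log2 fold change was 0.00, and 0.02 over all tested genes. Sema6c (chr3:95160420-95174050), a transmembrane semaphorin, had the largest rise, with 2.32, 2.22, 1.57 and 1.62 FPKM in HFHG and 1.10, 0.968, 1.10 and 0.988 FPKM in LG. Its HFHG libraries varied more than its LG libraries (SD 0.392 and 0.0697 FPKM), without overlap, and the log2 fold change was 0.82 ± 0.131 (adjusted p = 0.000131). Sema4b (chr7:80186870-80226646), the most abundant of these classes in LG, fell. It was at 3.75, 3.38, 3.69 and 3.79 FPKM in HFHG and at 5.34, 4.58, 4.96 and 4.89 FPKM in LG, a log2 fold change of -0.43 ± 0.0654 (adjusted p = 9.04e-05). Sema4a and Sema4g rose by 0.45 and 0.52 on the log2 scale. Sema4d, the osteoclast-derived inhibitor of bone formation, was at 0.778 ± 0.149 FPKM in HFHG and 0.983 ± 0.160 FPKM in LG, and Sema7a, a GPI-anchored semaphorin, at 1.65 ± 0.219 and 1.65 ± 0.211 FPKM (SD), and neither was called.

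**Figure D5:**
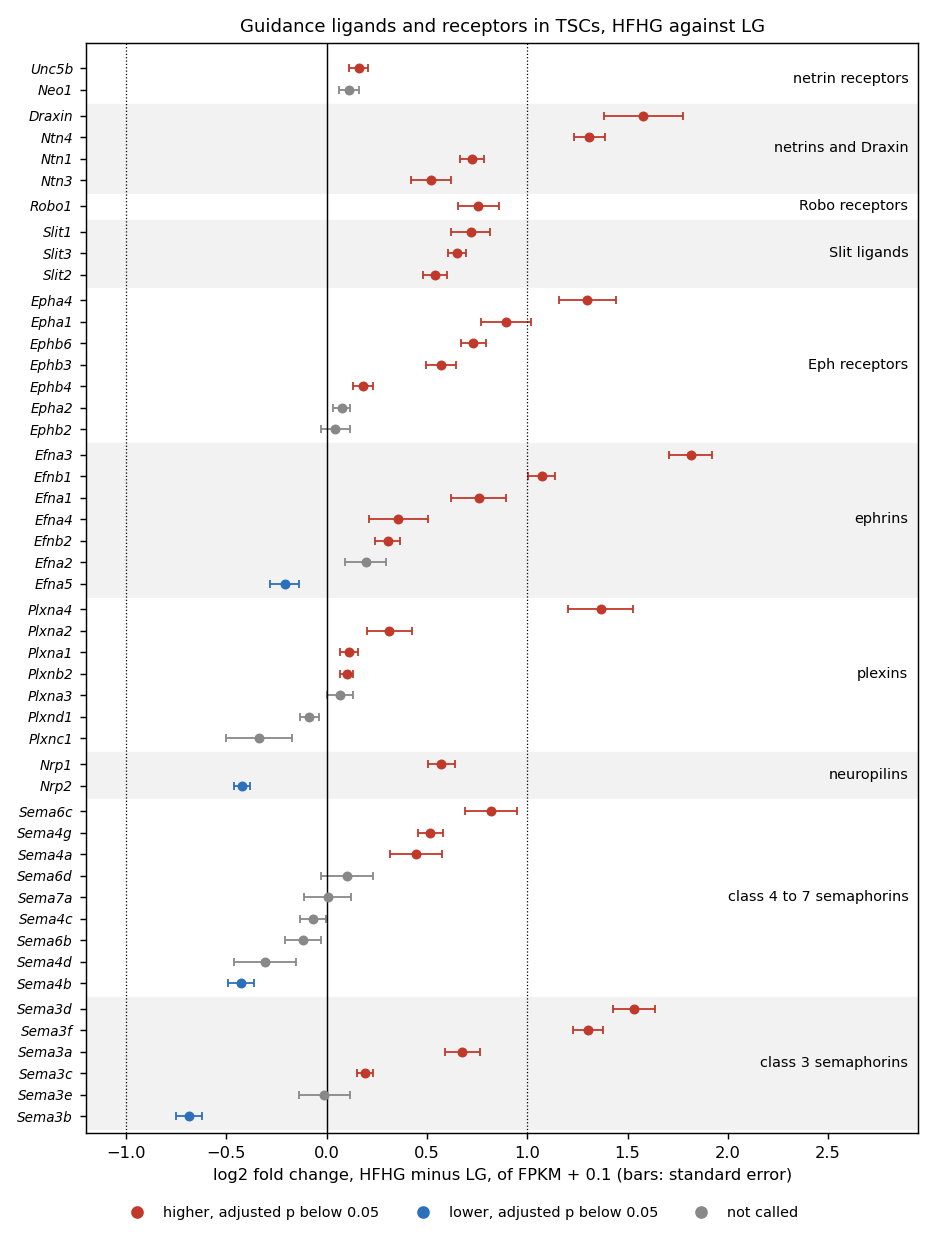
Log2 fold change (HFHG minus LG, of FPKM + 0.1) of each of the 48 tested guidance genes by family, with bars at 1 standard error and dotted lines at a 2-fold change. Points are red where the gene was higher and blue where it was lower at an adjusted p below 0.05, and the 4 blue points are Sema3b, Sema4b, Nrp2 and Efna5.

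Among the ephrins was the gene with the largest log2 fold change of the tested members on the scale of FPKM + 0.1, Efna3. With a pseudocount of 0.01 or with voom on the recovered reads, Draxin exceeded it (2.01 against 1.92 and 2.06 against 1.92). Efna3 (chr3:89313899-89322939), a GPI-anchored ligand of EphA receptors, was at 3.61, 3.06, 3.55 and 2.996 FPKM in HFHG and at 0.745, 0.830, 0.888 and 1.01 FPKM in LG. The lowest HFHG library was far above the highest LG library, and the log2 fold change was 1.81 ± 0.106 (adjusted p = 1.15e-08). Its exons overlap an antisense transcript, Gm15998, by up to 149 bases. Efna3 lies between its paralogs Efna1 and Efna4 on chromosome 3, at distances of 32948 and 10454 bases. Efna1 had 2.12, 3.55, 2.52 and 2.87 FPKM in HFHG and 1.62, 1.36, 1.70 and 1.61 FPKM in LG (log2 fold change 0.76 ± 0.135, adjusted p = 0.000308). Efna4 had 3.87, 3.98, 4.40 and 3.29 FPKM in HFHG and 3.63, 3.59, 2.16 and 2.85 FPKM in LG. Efna1 did not overlap between the groups and Efna4 did. The exons of Efna4 overlap an antisense transcript, 4731419I09Rik, by up to 168 bases. Its log2 fold change of 0.36 ± 0.145 (adjusted p = 0.046) lost the call without HFHG replicate 1, 2 or 3 or without LG replicate 3 or 4.

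Because these 3 neighbours were all called higher, the 250 bases before their start sites are shown, together with those of Sema3d, the semaphorin that rose most, and of Nrp2, the abundant gene that fell. The sequences are RefSeq's, in GRCm38.p6, from chr3:89280952-89281201 and chr3:89322940-89323189 (the first of 2 listed starts in each), chr3:89338029-89338278, chr5:12382916-12383165 and chr1:62703067-62703316, the first 3 from the minus strand and the others from the plus strand. Capitals mark matches on either strand to the GC box GGGCGG, the E-box CACGTG, the nuclear receptor motif AGGTCA or the cAMP response element TGACGTCA.
Efna1: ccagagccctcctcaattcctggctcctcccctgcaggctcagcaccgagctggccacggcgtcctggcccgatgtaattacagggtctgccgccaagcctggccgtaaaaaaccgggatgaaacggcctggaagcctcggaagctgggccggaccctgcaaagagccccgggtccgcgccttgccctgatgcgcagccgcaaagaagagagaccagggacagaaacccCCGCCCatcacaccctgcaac
Efna3: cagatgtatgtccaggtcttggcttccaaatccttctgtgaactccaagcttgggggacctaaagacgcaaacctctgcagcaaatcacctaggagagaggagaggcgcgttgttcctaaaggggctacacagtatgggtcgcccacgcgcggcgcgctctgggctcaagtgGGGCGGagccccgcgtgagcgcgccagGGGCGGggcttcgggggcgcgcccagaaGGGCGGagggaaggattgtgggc
Efna4: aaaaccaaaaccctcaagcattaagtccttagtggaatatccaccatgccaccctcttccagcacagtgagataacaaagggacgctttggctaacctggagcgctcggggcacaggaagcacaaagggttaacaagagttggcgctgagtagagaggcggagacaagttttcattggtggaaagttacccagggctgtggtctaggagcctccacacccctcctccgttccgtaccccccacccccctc
Sema3d: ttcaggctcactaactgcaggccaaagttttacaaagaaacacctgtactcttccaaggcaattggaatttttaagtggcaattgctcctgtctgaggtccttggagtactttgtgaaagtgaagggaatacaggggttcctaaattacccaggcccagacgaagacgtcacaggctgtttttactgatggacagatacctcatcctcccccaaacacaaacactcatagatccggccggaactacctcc
Nrp2: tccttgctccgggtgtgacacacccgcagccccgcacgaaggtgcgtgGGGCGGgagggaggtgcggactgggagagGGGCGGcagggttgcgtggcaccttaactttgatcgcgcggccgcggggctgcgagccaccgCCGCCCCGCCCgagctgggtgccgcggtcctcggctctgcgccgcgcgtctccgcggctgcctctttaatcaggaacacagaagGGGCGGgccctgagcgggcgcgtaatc

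All capitals in these windows are GC boxes, 1 in Efna1, 3 in Efna3, 5 in Nrp2 (2 of them overlapping by 1 base) and none in Efna4 or Sema3d. The Sema3d window was 46.8% G and C with 4 CpG, and that of Nrp2 was 72.4% with 32 CpG. RefSeq promoters were matched for 63 of the 73 members, Unc50 and Unc5cl among them, with 79 start sites. Of these windows of 250 bases, 72.2% held a GC box, against 58.3% of 11968 windows of tested genes and 32.7% of all 32851. The E-box was in 5.06% of the member windows, 8.31% of those of tested genes and 6.02% of all. The nuclear receptor motif was in 13.9%, 10.6% and 14.0%, and the cAMP response element in 1.27%, 2.51% and 1.55%. These are matches of letters and no measure of binding.

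Of the other ephrins, Efnb1 (chrX:99136061-99149022), a transmembrane ligand of EphB receptors with a known role in skeletal patterning, was the most abundant. It was at 14.7, 16.4, 14.9 and 14.0 FPKM in HFHG and at 7.18, 7.14, 6.23 and 7.82 FPKM in LG. The groups did not overlap, and the log2 fold change was 1.07 ± 0.0679 (adjusted p = 2.44e-08). Efnb2, an arterial marker in vessels, rose less, from 3.67 ± 0.0916 to 4.57 ± 0.279 FPKM (SD). Efna5 (chr17:62602957-62881317) was the only ephrin that fell, with 2.34, 2.57, 2.498 and 2.57 FPKM in HFHG and 2.78, 3.07, 2.73 and 3.03 FPKM in LG. The values did not overlap, and the log2 fold change was -0.21 ± 0.0717 (adjusted p = 0.0221). The call was lost without HFHG replicate 1 (adjusted p = 0.0639) or LG replicate 2 (adjusted p = 0.0621), or after rescaling the libraries to the same sum (adjusted p = 0.0963). Efna2 was not called (log2 fold change 0.19).

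Of the Eph receptors, 5 of 7 tested genes (71.4%) rose and none fell (4 of 6 without Epha4, which passed the filter through HFHG alone). Over all tested genes 34% were higher and 30.8% lower. The most abundant, Epha2 (chr4:141301221-141329384), a receptor of many epithelial and mesenchymal cells, was among those not called. It had 16.0, 17.7, 16.4 and 16.5 FPKM in HFHG and 16.0, 15.4, 15.5 and 16.4 FPKM in LG, with overlap, and a log2 fold change of 0.08 ± 0.0411 (adjusted p = 0.127). Rescaled to the same sum it was called at 0.13 (adjusted p = 0.0119). Epha4 (chr1:77367182-77515107), which binds ephrins of both classes, was at 0.83, 0.733, 0.681 and 0.835 FPKM in HFHG and at 0.298, 0.251, 0.257 and 0.208 FPKM in LG. Its groups had to lie apart, since it passed the filter through HFHG alone, and the call is no separate support. Its log2 fold change was 1.30 ± 0.144 (adjusted p = 5.10e-06). Epha1 rose by 0.89 on the log2 scale, from 0.487 ± 0.0467 to 0.991 ± 0.0954 FPKM, and its exons overlap those of Zyx on the opposite strand by up to 156 bases.

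Of the EphB receptors, Ephb6, which lacks kinase activity, rose from 3.31 ± 0.191 to 5.56 ± 0.247 FPKM (log2 fold change 0.73 ± 0.0626 SE). Ephb3 rose from 3.85 ± 0.224 to 5.77 ± 0.571 FPKM, and Ephb4, the venous partner of Efnb2, from 11.8 ± 0.645 to 13.4 ± 0.589 FPKM. Ephb2 was not called, with a log2 fold change of 0.04. Summed over the family, ephrin-B ligands were at 10.8 ± 0.623 FPKM in LG and 19.6 ± 0.753 FPKM in HFHG, and EphB receptors at 21.3 ± 0.269 and 27.3 ± 0.593 FPKM.

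All 3 tested netrins were higher, with a median log2 fold change of 0.72, where 34% of all tested genes were higher. Draxin, which passed the filter through HFHG alone, was higher too. Ntn1 (chr11:68209364-68386826), the secreted attractant that gives the family its name, was the most abundant. It was at 9.12, 8.98, 9.01 and 9.63 FPKM in HFHG and at 6.03, 5.78, 5.14 and 5.16 FPKM in LG (log2 fold change 0.72 ± 0.0605, adjusted p = 3.45e-07). Ntn4 (chr10:93641049-93745972), a basement membrane netrin that binds laminin, had 5.79, 6.05, 6.60 and 5.65 FPKM in HFHG and 2.12, 2.56, 2.49 and 2.32 FPKM in LG. Its log2 fold change was 1.31 ± 0.0761 (adjusted p = 1.08e-08), and in both netrins every HFHG library was above every LG library. The means of Ntn4 and Ntn1 were 2.37 and 5.53 FPKM in LG and 6.02 and 9.19 FPKM in HFHG.

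Draxin (chr4:148098437-148131139), a secreted protein that binds Dcc and Ntn1, was at 0.551, 0.904, 0.593 and 0.794 FPKM in HFHG and at 0.169, 0.170, 0.232 and 0.110 FPKM in LG. As it passed the filter through HFHG alone, the groups had to lie apart and the call is no separate support. The log2 fold change was 1.58 ± 0.197 (adjusted p = 1.47e-05). Ntn3 rose from 0.889 ± 0.0817 to 1.31 ± 0.0510 FPKM, and part of its exons is shared with Tbc1d24 on the same strand (up to 89 bases), which makes its level uncertain. Ntn5 had 1 read in HFHG and 3 in LG. At 0 reads, as in 3 of its HFHG libraries, a level of up to 0.0326 FPKM per library remains possible, counting 3 reads as the limit.

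Netrin receptors were dominated by Unc5b and neogenin (Neo1). Unc5b (chr10:60762594-60831581), a repulsive netrin receptor, was at 13.3, 14.0, 14.1 and 13.4 FPKM in HFHG and at 12.4, 12.8, 12.6 and 11.2 FPKM in LG. The rise was small and without overlap (log2 fold change 0.16 ± 0.0482, adjusted p = 0.0109). Neo1, which also binds repulsive guidance molecules, was at 10.3 ± 0.290 and 9.58 ± 0.554 FPKM (SD) and was not called (log2 fold change 0.11 ± 0.0495 SE, adjusted p = 0.0691). Dcc, the attractive netrin receptor, had 47 reads in HFHG and 51 in LG over 4 libraries each, with overlapping values of at most 0.0533 FPKM.

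Of the 71 guidance genes, 23 stayed below the expression filter, with 0.698 FPKM as the highest value in any library. They include 4 of 6 netrin receptors, 3 of 4 Robo receptors and 7 of 14 Eph receptors. In 8 of the 23 (34.8%) the HFHG libraries lay above the LG libraries and in 2 (8.70%) below, where 6.94% and 2.27% of all 7591 genes below the filter did so. With at least 100 reads over the 8 libraries, a minimum chosen after seeing the data, 8 of 13 members were above and 0 below, against 21.1% and 6.05% of 1802 such genes. That minimum leaves out the 2 lower members and lies just under the 108 reads of the scarcest of the 8, so these counts depend on it. The 10 differences each came with an unadjusted exact permutation p of 0.0286, the smallest that 4 against 4 libraries can give. Any gene without overlap gets this p, so it is no separate support. Benjamini-Hochberg adjustment over the members below the filter would leave none of them below 0.05. The 8 were Sema4f, Sema6a, Plxnb1, Plxnb3, Epha5, Ephb1, Robo3 and Unc5c, with 108 to 775 reads in all libraries together and ratios of the mean FPKM from 1.65 to 3.97. Sema4f, with 411 reads in HFHG and 191 in LG, had the highest mean FPKM of them, and Plxnb1, the receptor of Sema4d, had 471 and 278 reads. Ephb1 was at 0 reads in LG replicate 2, which allows up to 0.0177 FPKM. The exons of Plxnb1, Ephb1 and Unc5c overlap antisense or intergenic RNAs on the opposite strand. The 2 lower genes were Sema5b, with 18 and 38 reads, and Unc5a, with 13 and 41. Exons of Unc5a overlap those of Hk3 on the opposite strand by up to 34 bases. In the other 13, among them Sema3g, Sema5a, Efnb3, Epha3 and Epha7, the groups overlapped.

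Genes that act with or behind these receptors were followed in a list of 77, of which 67 were tested. In HFHG 33 (49.3%) were higher and 15 (22.4%) were lower at an adjusted p below 0.05, with a median log2 fold change of 0.12, and more than 2-fold higher were none and lower 2. Over all tested genes the shares were 34% higher and 30.8% lower, and 3.68% and 1.65% past 2-fold. The largest rises were in Rnd3, Rnd1 and Mical1. Rnd3, which opposes cell contraction, was at 33.8, 31.2, 31.5 and 32.2 FPKM in HFHG and at 16.6, 16.2, 16.3 and 17.1 FPKM in LG (log2 fold change 0.96 ± 0.0356, adjusted p = 1.62e-10). Rnd1, a plexin-binding relative, rose from 38.7 ± 1.03 to 71.6 ± 1.43 FPKM, and Mical1, an actin-oxidising enzyme downstream of plexins, from 3.12 ± 0.124 to 5.85 ± 0.430 FPKM. In all 3 the groups did not overlap. Of the 67 tested partner genes, 34 lay higher in HFHG without overlap and 17 lower, and of all tested genes 31.1% and 28.1%.

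The largest falls were in Nrcam, L1cam and Gipc1. L1cam, an adhesion molecule that joins Nrp1 in Sema3a reception, was at 4.58, 4.64, 4.94 and 4.70 FPKM in HFHG and at 9.84, 9.24, 10.4 and 9.40 FPKM in LG (log2 fold change -1.03 ± 0.0537, adjusted p = 3.94e-09). Nrcam, a relative that associates with Nrp2, was at 0.686, 0.759, 0.849 and 0.880 FPKM in HFHG and at 1.86, 1.86, 1.82 and 1.68 FPKM in LG (log2 fold change -1.10 ± 0.103, adjusted p = 1.03e-06). Gipc1, which binds the tail of neuropilins, fell from 46.1 ± 3.80 to 26.9 ± 0.405 FPKM. All 3 were without overlap between the groups, as were 28.1% of all tested genes in this direction. The KEGG axon guidance pathway as annotated in the deposited table, a list added after the table was seen, held 79 further genes that are neither members nor in the list of 77. Of these 60 were tested, and 32 (53.3%) were higher and 13 (21.7%) lower, against 34% and 30.8% of all tested genes. The median log2 fold change was 0.13.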

How the data were processed

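mRNA of primary TSCs was sequenced in 8 libraries, 4 from cells kept for 4 days with 25.5 mM glucose and palmitic acid at 300 µM (HFHG) and 4 with 5.5 mM glucose (LG). The authors deposited FPKM of 19301 genes for each library, made with a stranded kit, HISAT2 2.1.0 and mm10 per the submitters' processing notes. The counting program and its strand setting are not given in the sources used here. Groups came from the labels, mice from the study's methods, and doses and time from its results. The palmitic acid dose is the one the study names for its later experiments and is not stated for these libraries.

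limma 3.58.1 (R 4.3.3; lmFit, eBayes with trend) was fitted on log2(FPKM + 0.1) of the 11710 genes with at least 0.5 FPKM in 4 libraries, with Benjamini-Hochberg adjustment over all of them. Fold changes on this scale understate those of low genes. Genes below the filter were compared by an exact two-sided permutation test, with unadjusted p-values. Whole reads were recovered from the FPKM steps for 100% of genes (tolerance 0.001 reads) and used for depth, limits at 0 and an alternative fit. Limits cover counting error only. The fit and the recovery were tested on simulated data.

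The members and lists were chosen with earlier results of these data known. Values in every library are given for members past 2-fold, the most abundant of each family and the largest rise and fall of each family. For the 77 partner genes the 3 largest rises and falls are named. Other members named were chosen after their values were seen. Alternatives were the pseudocount, the filter, 3 scalings, a replicate block, robust eBayes, voom on the recovered reads and each library left out. Gene positions and promoters are RefSeq's (GRCm38.p6), and exon overlaps are from GENCODE M21. That replicates came from separate animals is not stated, so p-values measure the spread between these cultures.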

Additional observations from a re-analysis of the deposited data

Results flagged for a closer look

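Of 44 sets of 4 libraries (22 described members in each group), 1 held a library far from the other 3. Plxnb2 in LG replicate 4 was at 53.2 FPKM, while the other LG libraries were at 56.4 to 56.7 FPKM, and the gap made up 0.928 of the range of the group, above Dixon's critical value at the 95% level. Chance alone flags about 1 in 20 such sets. LG replicate 4 was also set apart from the other LG libraries on the second principal component, which held 4.18% of the variance.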

How the results depend on the processing

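Across the alternatives no called member changed direction. With quantile normalization 7 members were lower in place of 4. With a pseudocount of 1, 4 members were more than 2-fold higher, and with a minimum of 1 FPKM 5, in place of 8, since low genes shrink or drop out. The other counts of members and partner genes stayed within 1.5 times. With each library left out in turn, 29 to 33 members were higher, 3 to 5 were lower and 8 were more than 2-fold higher. The replicate numbers did not pair the libraries (correlations of same-numbered libraries from -0.0736 to -0.00558), and a replicate block gave 31 higher and 4 lower members, without the call of Plxna1. Scalings gave 29 to 35 higher and 3 to 7 lower members and moved the median of all genes by at most 0.0577 (log2). The 10 members below the filter without overlap numbered 10 also under 2 scalings chosen after seeing the data. Among the described members, Plxnb2 with median-ratio scaling and Efna5 after rescaling or without HFHG replicate 1 or LG replicate 2 lost their calls, and Epha2 gained a call. Plxna1, Plxna2, Efna4 and Sema4a also lost calls under some settings. Calls were gained by Sema4d, Plxnc1 and Sema6b (lower, quantile normalization), Neo1 and Efna2 (higher, rescaled to the same sum) and Plxnd1 (lower, median-ratio scaling), and by Sema4d, Plxnc1 and Neo1 with voom on the recovered reads. Plxnc1 without HFHG replicate 4, Sema4d without LG replicate 1 and Neo1 without LG replicate 2 also gained one. Without the filter on low values 38 members were higher. Epha3, Epha5, Ephb1, Plxnb1, Plxnb3, Robo3, Sema4f, Sema6a and Unc5c were newly called higher there, and Efna4, Plxna1 and Plxna2 lost their calls. Depth limits the members with under 100 reads, where only large differences would show.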
